A study of Mus musculus with 12 samples.

Results

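The genes described here were a list of 41 genes of the Ras/ERK pathway: Ras proteins and the kinases and GTPase-activating proteins around them, the EGF receptor and its ligands, the Dusp, Sprouty and Spred feedback inhibitors, the Ets and AP-1 transcription factors, and immediate-early and other genes known to respond to Ras and ERK. They were chosen by gene symbol, and where a gene has several probe sets the brightest, averaged over the 12 arrays, was taken. Of the 41 genes, 37 were measured, among 18193 genes with a probe set of their own. Hras, Mapk3 and Areg matched no probe set by symbol in the annotation used, and Etv1 was represented by 3 probe sets that it shares with another gene. RNA of mouse embryonic fibroblasts (MEFs), which are connective tissue cells grown from embryos, was measured on 12 Affymetrix MOE430 2.0 arrays, 3 for each of 4 groups. WT MEFs were wild type. Rb1KO MEFs carried a deletion of Rb1, which encodes the retinoblastoma protein. TKO MEFs carried deletions of Rb1, p107 (gene Rbl1) and p130 (gene Rbl2), the whole retinoblastoma family. TKO-Ras MEFs carried the same deletions and RasG12D, a form of Ras that stays bound to GTP, and the labels name neither the Ras gene nor the way in which it was introduced. All cells were collected while growing exponentially, and no treatment was given in the labels. The TKO MEFs came from another laboratory. The submitters call the arrays of a group biological triplicates of a cell line, and nothing says that they came from separate embryos, so the p-values below measure the spread between these RNA samples.

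Ras proteins switch on the kinase chain Raf, MEK and ERK when growth factor receptors such as the EGF receptor are engaged. Active ERK induces immediate-early genes within minutes, among them the Fos, Jun and Egr transcription factors, and with a delay it induces its own inhibitors. Dusp phosphatases remove the activating phosphates from ERK and related kinases, while Sprouty and Spred proteins act upstream, between the receptor and Raf, so that the levels of these inhibitors are widely read as a record of how active ERK has been.

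All values are log2 values as the authors normalized them, and a difference of 1 on this scale is a change of 2-fold. A probe set was called at a Benjamini-Hochberg adjusted p under 0.05 in limma, fitted on all 12 arrays and adjusted over 45037 probe sets, and errors of fold changes are standard errors from that fit. Probe sets at or under 5.13 were taken as background, since 95% of 44 probe sets of olfactory receptors, which fibroblasts are not known to use, lay there. The Rb family checked the labels in part. Rbl1 lay between 8.18 and 9.0 on the arrays labelled WT and Rb1KO and between 4.0 and 5.12, at background, on those labelled TKO and TKO-Ras. Rb1 was lower in all 3 deleted groups (6.97 to 7.74) than in WT MEFs (8.31 to 8.70). Rbl2 was lower on the TKO (5.27 to 5.71) and TKO-Ras arrays (4.60 to 5.35) than in WT, but above background on all 3 TKO arrays and on 2 TKO-Ras arrays, and the TKO mean was at least 1.25-fold that of the Rb1KO arrays (adjusted p = 0.0041 in limma). It was at background on the arrays labelled Rb1KO (3.80 to 4.47, against 7.54 to 7.90 in WT), although that label names a deletion of Rb1 alone, so every direction drawn from these arrays below is that of the libraries labelled Rb1KO. WT replicate 3 stood apart from the other WT arrays, with correlations in the group down to 0.9695, against 0.9904 or more in the other groups. Of 13 fibroblast markers, all were above background in WT and Rb1KO MEFs, 12 in TKO and 11 in TKO-Ras MEFs, with Vim (13.94 to 14.51) the most abundant. Their summed level (log2 of the sum of linear values) lay at 16.96 to 17.11 in WT, 16.23 to 16.33 in Rb1KO, 16.56 to 16.63 in TKO and 16.22 to 16.29 in TKO-Ras MEFs. Between TKO-Ras and TKO MEFs 6 of the 13 fell and none rose, among them Dcn (-3.49) and Col1a1 (-2.45), while TKO MEFs had 1 higher and 6 lower than WT, and Rb1KO MEFs 8 lower than WT. Some listed markers of other cell types were at background on all 12 arrays: 6 of 10 for epithelium (Cdh1 among them), 5 of 10 for leukocytes (Ptprc among them), 6 of 8 for endothelium (Pecam1 among them), 3 of 8 for neural cells and 4 of 7 for muscle. The rest of each list was above background on at least 1 array. The summed level of the epithelial list, which was led by Krt19, was higher in TKO-Ras MEFs (10.53 to 11.16) than in TKO MEFs (9.16 to 9.72), although none of its 10 genes was called higher and Cdh1, at background, was called lower. The sums of the leukocyte (9.18 to 9.43 against 8.90 to 9.05), muscle (9.03 to 9.77 against 8.27 to 8.50) and neural lists (9.83 to 10.67 against 9.41 to 9.81) were higher as well, with 1 of their genes, Tnnt2 of muscle, called higher. The most abundant gene was Cd14 in the leukocyte list, Eng in the endothelial, Tubb3 in the neural and Acta1 in the muscle list. The part of the cell types in the results below was not tested, and in bulk RNA fewer cells of a type and less RNA per cell cannot be told apart.

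The comparison of TKO-Ras with TKO MEFs sets cells with RasG12D beside cells without it, both carrying the deletions of the retinoblastoma family. Each group is described as a cell line, and the labels do not say whether the TKO-Ras MEFs derive from the TKO line. Genotype and cell line therefore cannot be told apart in any of the comparisons. Of the 10 feedback inhibitors on the list 7 rose, namely all 5 Sprouty and Spred genes listed, Dusp4 and Dusp6, while Dusp1, Dusp5 and Dusp7 were not called. Also higher in TKO-Ras MEFs were both PEA3 factors measured (Etv4 and Etv5), Jun, Epha2 and Hmga2. In all, 12 of the 37 members rose, by 1.74-fold to 8.96-fold, and 1, Fosl2, fell. Over all probe sets 2.54% were called higher and 3.13% lower in this comparison. Over the 18193 genes, read on 1 probe set each as the members were, 3.19% and 4.17% were. The median log2 fold change was 0.56 over the members and 0.04 over all genes. The arrays of the groups did not overlap for 18 members that were higher and 3 that were lower in TKO-Ras MEFs, and over all probe sets this held for 15.4% and 11.1%. None of the 5 Egr and Ier genes, the 4 genes of the EGF receptor and its ligands, or the 4 Ras, kinase and GTPase-activating protein genes was called. Of the 24 members not called, 3 higher and 1 lower had an unadjusted p under 0.05.

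**Figure D1:**
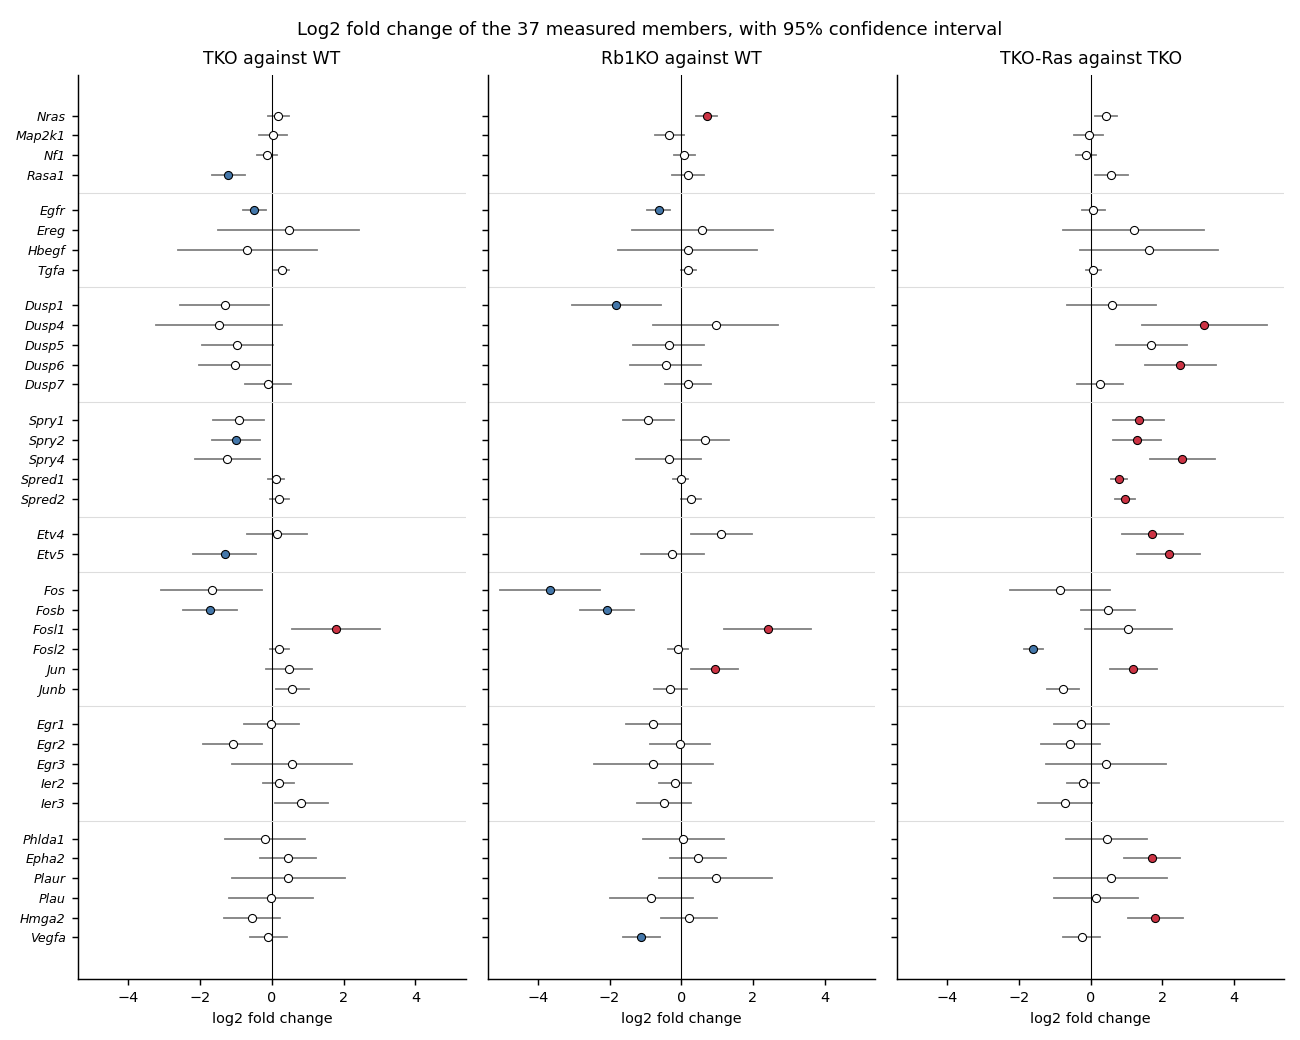
Log2 fold change of each of the 37 measured members (horizontal axis) in TKO against WT, Rb1KO against WT and TKO-Ras against TKO MEFs, 3 arrays a group, with bars for the 95% confidence interval of the limma fit, filled red where called higher and blue where called lower. Members are grouped by role, and in the right panel the 5 Sprouty and Spred genes and both Etv genes are all filled red, with Fosl2 the single blue point.

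Dusp4 and Dusp6, an ERK phosphatase of the nucleus and one of the cytoplasm, were the Dusp genes called in this comparison. Dusp4 measured 6.03, 5.75 and 5.94 in TKO MEFs and 9.23, 8.99 and 8.99 in TKO-Ras MEFs. The groups were far apart, at a log2 fold change of 3.16 ± 0.80 (adjusted p = 0.041 in limma), the largest among the members in this comparison. The other groups were close to TKO-Ras, with 8.53, 9.01 and 7.51 in Rb1KO MEFs and 8.52 and 8.75 on WT replicates 1 and 2, and WT replicate 3 alone lay at background with 4.89. Dusp6 measured 8.21, 8.04 and 7.50 in TKO and 10.38, 10.53 and 10.35 in TKO-Ras MEFs. Every TKO-Ras array was also above the highest array of WT (7.96 to 9.60) and Rb1KO MEFs (7.84 to 9.48), and the log2 fold change against TKO was 2.50 ± 0.45 (adjusted p = 0.0074 in limma). Dusp5, which acts on ERK in the nucleus, did not overlap between the groups (6.96 to 8.19 in TKO, 8.97 to 9.80 in TKO-Ras MEFs) but missed the threshold, at 1.69 ± 0.45 (adjusted p = 0.052 in limma). Dusp1, which acts on p38 and JNK as well as ERK, and Dusp7 differed by 0.59 ± 0.57 and 0.26 ± 0.29 and were not called. Dusp4 lost its call when any array of the groups compared was left out, with a log2 fold change of 3.08 to 3.23, while Dusp6 kept it in each of these fits. Here and below, an array left out is always one of the 2 groups compared.

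The listed Sprouty genes Spry1, Spry2 and Spry4, which restrain signalling from receptor tyrosine kinases to Ras, were lower on average in TKO than in TKO-Ras MEFs. Spry4 measured 4.24, 4.77 and 3.47 in TKO MEFs, none of them above background, and 6.92, 6.12 and 7.10 in TKO-Ras MEFs. It was therefore at least 2.99-fold higher in TKO-Ras MEFs (adjusted p = 0.0044 in limma), taking the background level in place of the dimmer values. Its 3 other probe sets, all dimmer, differed by 0.81 (called), 0.51 and 0.30, and the mean of the 4 by 1.04, which was called. Spry2 measured 7.25, 7.63 and 6.38 in TKO and 8.16, 8.39 and 8.58 in TKO-Ras MEFs. Its level in TKO-Ras MEFs overlapped that of WT MEFs (8.27, 8.36 and 7.65) and lay mostly under that of Rb1KO MEFs (8.49, 9.13 and 8.61). The log2 fold change against TKO was 1.29 ± 0.30 (adjusted p = 0.03 in limma), against 0.52 on its other probe set, which was not called. Spry1 measured 6.21, 6.48 and 6.82 in TKO and 8.15, 8.46 and 6.91 in TKO-Ras MEFs, so that TKO-Ras replicate 3 nearly reached the TKO range. Its log2 fold change was 1.34 ± 0.32 (adjusted p = 0.034 in limma).

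The Spred proteins bring neurofibromin, a Ras GTPase-activating protein, to the membrane, and their genes moved by less but with far less spread. Spred1 measured 9.63, 9.73 and 9.78 in TKO and 10.60, 10.47 and 10.46 in TKO-Ras MEFs, a log2 fold change of 0.80 ± 0.10 (adjusted p = 8.5e-04 in limma). Spred2 measured 9.16, 9.13 and 9.20 in TKO and 10.14, 10.27 and 9.98 in TKO-Ras MEFs, a log2 fold change of 0.96 ± 0.12 (adjusted p = 9.6e-04 in limma). WT and Rb1KO MEFs lay with TKO MEFs for both genes, at 9.46 to 9.69 for Spred1 and 8.69 to 9.27 for Spred2. Spred1 has 8 probe sets and Spred2 has 5, and each of them was higher in TKO-Ras MEFs, 4 and 2 of them past the threshold. Spry4, Spred1 and Spred2 kept their calls when any array was left out. Spry2 lost its call without TKO replicate 1 or 3 or any TKO-Ras array (0.94 to 1.40), and Spry1 without any TKO array or without TKO-Ras replicate 1 or 2 (1.03 to 1.5).

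**Figure D2:**
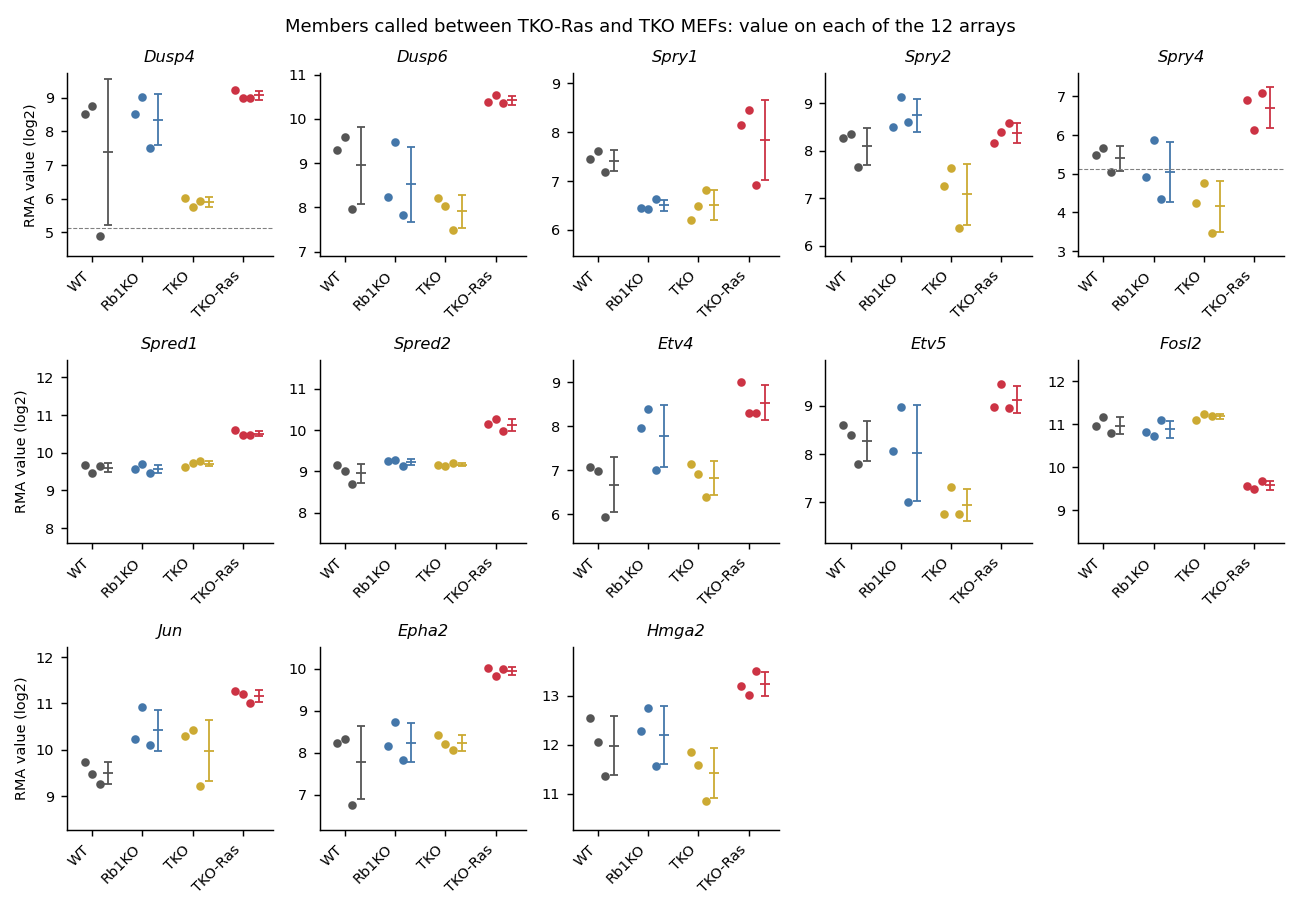
Value (log2, vertical axis) on each of the 12 arrays for the 13 members called between TKO-Ras and TKO MEFs, with points for single arrays, a bar for the mean ± SD of 3 arrays, and the background of 5.13 dashed where it is in range. The TKO-Ras points lie above every TKO point in 12 panels and below them in the panel of Fosl2, while WT replicate 3 is the low WT point for Dusp4, Dusp6, Etv4 and Epha2.

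Promoter letters were examined because these members rose together. RefSeq promoters (mouse GRCm38.p6, the bases before each annotated start) were given for 26 of the 37 members, among them 9 of the 12 that rose. Ereg, Hbegf, Dusp4, Spry4, Etv4, Fosl1, Egr1, Egr3, Ier2, Phlda1 and Plau had no entry. The octamers of Capicua, a repressor that ERK signalling relieves, were searched as TGAATGAA, TGAATGGA, TCAATGAA and TCAATGGA on both strands in the 250 bases before the start. They were found for 4 members, 3 of them among the 9 that rose (Dusp6, Spry2 and Epha2) and 1 not called between TKO-Ras and TKO MEFs (Fos), while 3.71% of 27025 genes held one. The 4 promoters are shown in full because they place the octamer, in capitals, relative to the start, which follows the last base. Dusp6 lies at chr10:99262981-99263230 on the plus strand, Spry2 at chr14:105896820-105897069 on the minus strand, Epha2 at chr4:141300971-141301220 on the plus strand and Fos at chr12:85473640-85473889 on the plus strand.
Dusp6: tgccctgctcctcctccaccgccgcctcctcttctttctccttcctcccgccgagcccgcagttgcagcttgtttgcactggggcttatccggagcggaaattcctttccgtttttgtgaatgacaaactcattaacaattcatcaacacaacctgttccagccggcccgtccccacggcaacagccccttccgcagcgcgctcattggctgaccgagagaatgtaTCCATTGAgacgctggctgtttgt
Spry2: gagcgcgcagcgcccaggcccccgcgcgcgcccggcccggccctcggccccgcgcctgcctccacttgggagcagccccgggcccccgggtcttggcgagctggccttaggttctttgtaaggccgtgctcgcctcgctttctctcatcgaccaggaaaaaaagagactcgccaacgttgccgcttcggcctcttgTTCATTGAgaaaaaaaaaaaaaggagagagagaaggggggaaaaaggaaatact
Epha2: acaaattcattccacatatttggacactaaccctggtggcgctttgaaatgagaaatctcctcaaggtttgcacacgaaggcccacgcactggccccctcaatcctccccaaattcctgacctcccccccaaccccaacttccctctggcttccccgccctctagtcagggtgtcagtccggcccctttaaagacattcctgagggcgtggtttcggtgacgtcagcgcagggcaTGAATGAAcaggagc
Fos: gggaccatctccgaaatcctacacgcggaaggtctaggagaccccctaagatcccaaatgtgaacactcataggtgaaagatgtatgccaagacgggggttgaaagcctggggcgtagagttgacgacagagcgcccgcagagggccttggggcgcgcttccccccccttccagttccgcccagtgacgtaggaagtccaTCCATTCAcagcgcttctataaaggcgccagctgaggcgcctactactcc
The octamer began 24 bases before the start of Dusp6, 54 before that of Spry2, 15 before that of Epha2 and 50 before that of Fos, on the minus strand of the window in all but Epha2. Each of the other motifs was found in 1 or 2 of the 26 members, and no motif count was tested against the share of genes. The AP-1 site, searched as TGAGTCA or TGACTCA, was in 1 member (Plaur, against 5.16% of genes), and the Ets site CCGGAAGT in 1 (Nf1, 3.23%). The cyclic AMP response element TGACGTCA was in 2 (Dusp1 and Epha2, 1.77%). The CArG box, which serum response factor binds, was in 2 (Dusp5 and Egr2, 1.62%). No 2 of these motifs overlap in letters in the printed windows. A match is a run of letters in these windows and not a measured binding site.

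The PEA3 factors Etv4 and Etv5 are Ets transcription factors whose genes respond to ERK. Etv5 measured 6.76, 7.32 and 6.76 in TKO and 8.97, 9.44 and 8.95 in TKO-Ras MEFs, a log2 fold change of 2.18 ± 0.40 (adjusted p = 0.009 in limma). Etv4 measured 7.13, 6.92 and 6.39 in TKO and 9.0, 8.30 and 8.30 in TKO-Ras MEFs, a log2 fold change of 1.72 ± 0.39 (adjusted p = 0.024 in limma). No TKO-Ras array overlapped a TKO array for either gene, while Rb1KO MEFs spread widely, from 7.01 to 8.98 for Etv5 and from 7.01 to 8.39 for Etv4. The other, dimmer Etv4 probe set differed by 0.90 and was not called. Those of Etv5 differed by 1.39 (not called) and 0.90 (called), and the mean of the probe sets was called for both genes. Etv5 kept its call when any array was left out, and Etv4 lost it without TKO replicate 2 or 3 or TKO-Ras replicate 1 or 3 (1.49 to 1.84).

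The AP-1 factors did not move as a group between TKO-Ras and TKO MEFs. Fosl2, which encodes the Fos relative Fra-2, measured 11.11, 11.24 and 11.19 in TKO and 9.57, 9.49 and 9.69 in TKO-Ras MEFs. WT (10.79 to 11.17) and Rb1KO MEFs (10.72 to 11.10) lay with TKO MEFs, and the log2 fold change of -1.60 ± 0.12 (adjusted p = 3.0e-05 in limma) had the smallest adjusted p of the members. It kept its call when any array was left out, but the other, dimmer Fosl2 probe set differed by 0.08 and was not called. Jun measured 10.29, 10.42 and 9.22 in TKO and 11.27, 11.21 and 11.02 in TKO-Ras MEFs, a log2 fold change of 1.19 ± 0.30 (adjusted p = 0.039 in limma). The other, dimmer Jun probe set differed by 0.82, and neither it nor the mean of both was called. Jun was lowest on average in WT MEFs (9.74, 9.47 and 9.27), and its call was lost without TKO replicate 3 or any TKO-Ras array (0.82 to 1.27). Junb differed the other way, with 9.14, 9.18 and 8.44 in TKO and 8.19, 8.01 and 8.22 in TKO-Ras MEFs, at -0.78 ± 0.21 (adjusted p = 0.053 in limma), and it passed without TKO replicate 3 (-1.01). Fosl1, which encodes Fra-1, overlapped between the groups (8.21 to 9.50 in TKO, 9.39 to 10.37 in TKO-Ras MEFs) at 1.05 ± 0.55. Fos at -0.85 ± 0.64 and Fosb at 0.47 ± 0.34 overlapped as well.

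**Figure D3:**
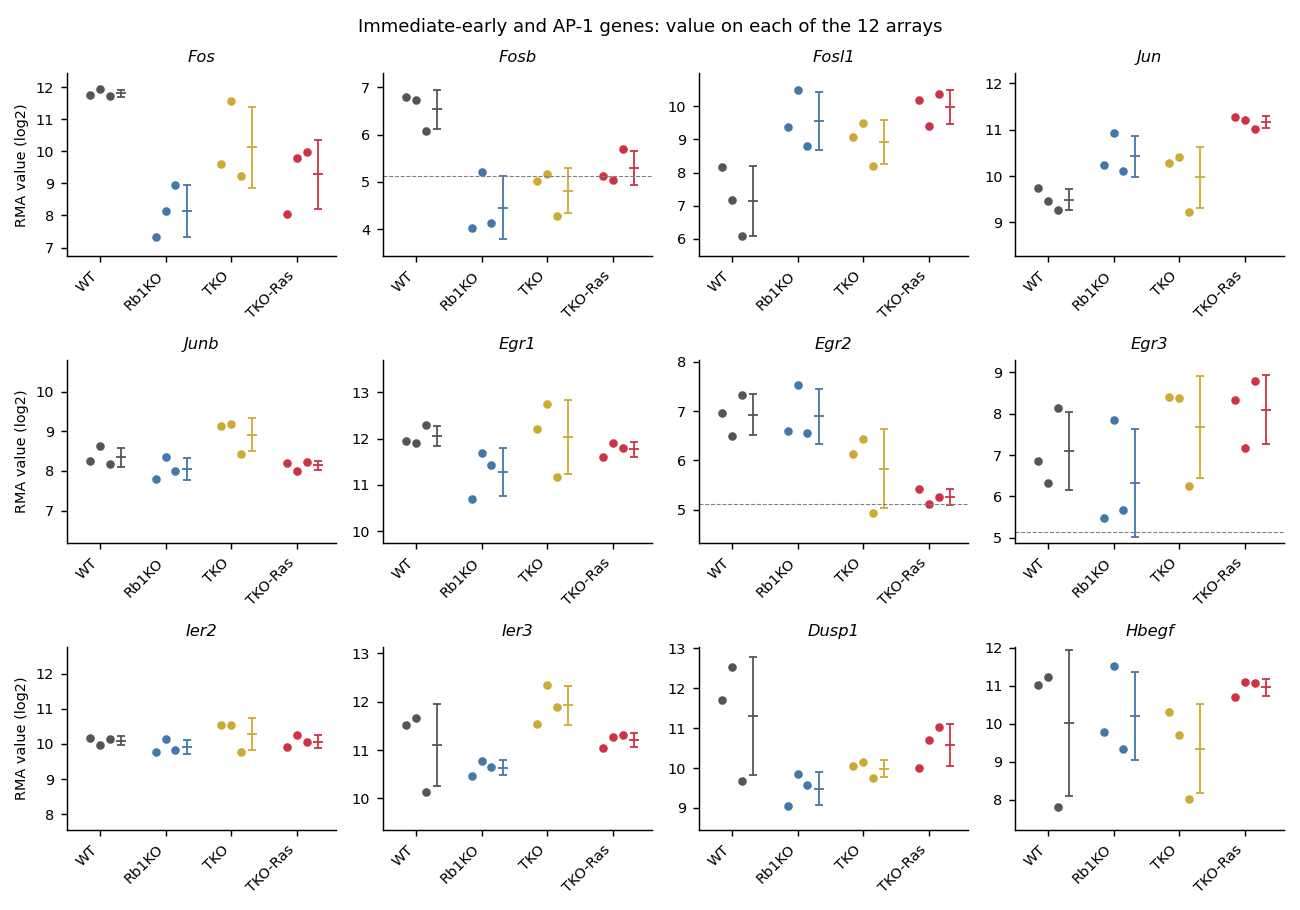
Value (log2, vertical axis) on each of the 12 arrays for 12 immediate-early, AP-1 and related members, with points for single arrays, a bar for the mean ± SD of 3 arrays, and the background of 5.13 dashed where it is in range. Fos and Fosb are highest on the 3 WT arrays, Fosl1 is lowest there, and WT replicate 3 lies well below the other WT arrays for Hbegf, Dusp1 and Ier3.

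The Egr zinc finger factors and the immediate-early genes Ier2 and Ier3 were not called between TKO-Ras and TKO MEFs. Egr1 was among the brightest members and spread most in TKO MEFs, with 12.21, 12.74 and 11.16 against 11.60, 11.91 and 11.79 in TKO-Ras MEFs. Egr2 lay between 4.93 and 6.44 in TKO and between 5.11 and 5.42, close to background, in TKO-Ras MEFs. Egr3 ranged from 6.25 to 8.40 in TKO and from 7.18 to 8.80 in TKO-Ras MEFs. Their differences were -0.27 ± 0.35 for Egr1, -0.57 ± 0.37 for Egr2 and 0.43 ± 0.76 for Egr3. Ier2 differed by -0.22 ± 0.20, and Ier3, whose product limits cell death, by -0.72 ± 0.34 without overlap of its arrays (11.54 to 12.35 in TKO, 11.04 to 11.32 in TKO-Ras MEFs).

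Ligands of the EGF receptor were higher on average in TKO-Ras than in TKO MEFs, but within a spread too wide for a call. Hbegf measured 10.30, 9.71 and 8.03 in TKO and 10.71, 11.11 and 11.07 in TKO-Ras MEFs, a difference of 1.62 ± 0.88 (adjusted p = 0.36 in limma). Ereg measured 8.23, 8.58 and 7.52 in TKO and 9.08, 8.99 and 9.86 in TKO-Ras MEFs, at 1.20 ± 0.89 (adjusted p = 0.52 in limma). Neither gene overlapped between the groups. The WT arrays, which share in the estimate of the spread, lay far apart: WT replicate 3 was at 7.81 for Hbegf and 5.21 for Ereg, against 11.02 and 8.41 or more on the other WT arrays. The SD of Hbegf was also 1.18 in TKO and 1.16 in Rb1KO MEFs, and that of Ereg 0.54 and 1.26. Neither gene was called in a fit of the TKO-Ras and TKO arrays alone. Tgfa, which stayed between 5.81 and 6.37 on all 12 arrays, differed by 0.07 ± 0.10. Egfr itself differed by 0.07 ± 0.15 on the brightest of its 7 probe sets. Its probe sets disagreed: the next in brightness fell by 1.44 on the log2 scale (adjusted p = 0.032 in limma).

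Of the genes at the centre of the pathway, Map2k1 and Nf1 were called in none of the 5 comparisons on the probe sets read. A dimmer Nf1 probe set was called higher than WT in Rb1KO (0.73), TKO (0.57) and TKO-Ras MEFs (0.67). The dimmest Nf1 probe set was not called. Map2k1, which encodes MEK1, lay between 10.26 and 11.07 on all 12 arrays, and Nf1, which encodes neurofibromin, between 6.29 and 6.93. Nras measured 10.63, 10.34 and 10.15 in TKO and 10.92, 10.68 and 10.79 in TKO-Ras MEFs, and Rasa1, which encodes the p120 Ras GTPase-activating protein, 9.52, 9.65 and 9.33 against 9.96, 10.06 and 10.22. Neither pair of groups overlapped, yet the differences of 0.43 ± 0.14 for Nras and 0.58 ± 0.21 for Rasa1 were not called (adjusted p = 0.11 and 0.14 in limma), and Nras passed without TKO replicate 1 (0.55). Those of Map2k1 (-0.06 ± 0.18) and Nf1 (-0.12 ± 0.13) were smaller than their errors.

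Among the other genes known to be induced by Ras and ERK, Epha2 and Hmga2 rose. Epha2, a receptor tyrosine kinase for ephrins, measured 8.43, 8.20 and 8.06 in TKO and 10.02, 9.83 and 9.99 in TKO-Ras MEFs. WT (6.76 to 8.32) and Rb1KO MEFs (7.83 to 8.74) lay with TKO MEFs, and the log2 fold change was 1.72 ± 0.36 (adjusted p = 0.017 in limma). Hmga2, a chromatin protein of embryonic cells and the brightest member, measured 11.84, 11.59 and 10.86 in TKO and 13.20, 13.02 and 13.49 in TKO-Ras MEFs, a log2 fold change of 1.80 ± 0.36 (adjusted p = 0.013 in limma). All 4 Hmga2 probe sets were higher, by 1.42 to 2.13 on the log2 scale, and 3 of them were called. Epha2 lost its call without TKO replicate 2 or 3 or TKO-Ras replicate 1 or 3 (1.63 to 1.70), and Hmga2 without replicate 3 of either group (1.52 and 1.68). Plau and Plaur, which encode urokinase and its receptor, differed by 0.15 ± 0.53 and 0.56 ± 0.72, Phlda1 by 0.45 ± 0.51 and the angiogenic factor Vegfa by -0.25 ± 0.24, all with overlapping arrays.

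The comparison of TKO with WT MEFs sets cells with deletions of the whole retinoblastoma family beside wild-type cells. Since the TKO MEFs came from another laboratory, origin may differ along with genotype and cell line. Rasa1, Fosb, Spry2, Etv5 and Egfr fell and Fosl1 rose, so that 1 of the 37 members was higher and 5 were lower. Over all probe sets 10.5% were called higher and 9.01% lower, against 2.7% and 13.5% of the members. Over genes read on 1 probe set each, the shares were 13.6% and 9.9%. The 4725 and 4060 probe sets called became 3988 and 4761 when the arrays were scaled by cyclic loess. Rasa1 measured 10.85, 10.71 and 10.58 in WT and 9.52, 9.65 and 9.33 in TKO MEFs, a log2 fold change of -1.22 ± 0.21 (adjusted p = 0.0017 in limma). Fosb measured 6.80, 6.73 and 6.07 in WT MEFs, and in TKO MEFs only replicate 2, at 5.16, was above background (5.02 and 4.27 on the others). Its log2 fold change was -1.72 ± 0.34 (adjusted p = 0.0045 in limma), and Rasa1 and Fosb alone kept their calls in every fit without 1 array. Fosl1 measured 8.18, 7.17 and 6.08 in WT and 9.07, 9.50 and 8.21 in TKO MEFs, which came close to overlapping, at 1.79 ± 0.55 (adjusted p = 0.042 in limma). The other, dimmer Fosl1 probe set differed by 1.12 and was not called, while the mean of both was called.

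Of the 10 Dusp, Sprouty and Spred members, Spry2 alone was called between TKO and WT MEFs. It fell by 1.0 on the log2 scale (adjusted p = 0.037 in limma), but its other probe set differed by -0.02 and the mean of both, at -0.51, was not called. The PEA3 factor Etv5, at 8.60, 8.39 and 7.80 in WT against the TKO values above, fell by 1.32 (adjusted p = 0.04 in limma). The other Etv5 probe sets differed by -0.64 and -0.21, and neither they nor the mean of its probe sets was called. Dusp4 (-1.48 ± 0.80), Dusp1 (-1.32 ± 0.57), Dusp6 (-1.03 ± 0.45), Dusp5 (-0.96 ± 0.45) and Spry1 (-0.92 ± 0.32) were lower on average but not called, and Spred1 (0.11 ± 0.10) and Spred2 (0.21 ± 0.12) differed the other way, also without a call. Leaving out WT replicate 3 changed several of these calls. Without it Dusp4 (-2.73), Dusp1 (-2.13), Dusp6 (-1.53), Dusp5 (-1.38), Spry4 (-1.42, with TKO not above background) and Tgfa (0.34) passed the threshold, and 10 members were called in place of 6. Here and below, the share of all probe sets called in a fit without 1 array was not counted, so such counts describe the members alone. The other arrays matter as well: 2 members were called without TKO replicate 1 or without WT replicate 2. Fosl1 was lost without TKO replicate 1 or 2 or WT replicate 2 or 3 (1.26 to 1.80), Spry2 without TKO replicate 1 or 3 or WT replicate 1 or 2 (-1.08 to -0.65), and Etv5 without any TKO array or WT replicate 1 or 2 (-1.5 to -1.15). Egfr (-0.49 ± 0.15, adjusted p = 0.035 in limma) was lost without any TKO array or WT replicate 2 or 3 (-0.54 to -0.37), while 3 of its other probe sets were called at -1.81, -2.06 and -0.78. Spry4, Fos and Egr2 passed without TKO replicate 2 (-1.54, -2.40 and -1.40), and Junb and Jun without TKO replicate 3 (0.81 and 0.86).

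On the arrays labelled Rb1KO, AP-1 genes differed most from WT MEFs. Fos and Fosb fell, Fosl1 and Jun rose, and with Nras, Egfr, Dusp1 and Vegfa this made 3 members higher and 5 lower. Over all probe sets 12.5% were called higher and 10.1% lower, that is 5646 and 4537, a balance that turned to 4271 and 5596 when the arrays were scaled by cyclic loess. Over genes read on 1 probe set each, the shares were 15.6% and 12.3%. Fos measured 11.75, 11.93 and 11.73 in WT and 7.33, 8.15 and 8.95 on the arrays labelled Rb1KO, a log2 fold change of -3.66 ± 0.64 (adjusted p = 0.0016 in limma). Fosb measured 4.03, 5.22 and 4.13 there, above background on 1 array of 3, at -2.07 ± 0.34 (adjusted p = 0.0012 in limma). Fosl1 measured 9.37, 10.49 and 8.79 and rose by 2.41 ± 0.55 (adjusted p = 0.0086 in limma), with no overlap with WT. The family was thus split, with Fos and Fosb low where Fosl1 was high. Jun measured 10.24, 10.93 and 10.10, at 0.93 ± 0.30 (adjusted p = 0.044 in limma), and lost its call without Rb1KO replicate 1 or 2 or any WT array (0.67 to 1.05). The other Jun probe set differed by 0.60, and neither it nor the mean of both was called.

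Nras measured 10.31, 10.25 and 10.01 in WT and 10.99, 10.97 and 10.73 on the arrays labelled Rb1KO, a log2 fold change of 0.71 ± 0.14 (adjusted p = 0.0034 in limma). Vegfa measured 9.30, 9.43 and 8.86 in WT and 8.03, 8.17 and 8.07 on the arrays labelled Rb1KO, at -1.11 ± 0.24 (adjusted p = 0.0053 in limma). Neither gene overlapped between the groups. Egfr measured 7.66, 8.12 and 7.84 in WT and 7.05, 7.49 and 7.19 on the arrays labelled Rb1KO, at -0.63 ± 0.15 (adjusted p = 0.0087 in limma), and its second brightest probe set fell further, by 2.27 (adjusted p = 6.2e-04 in limma). Dusp1 spread over 9.67 to 12.53 in WT MEFs and overlapped the range of 9.05 to 9.84 on the arrays labelled Rb1KO. Its call (-1.81 ± 0.57, adjusted p = 0.039 in limma) was lost without any Rb1KO array or WT replicate 1 or 2 (-1.99 to -1.20). Etv4 (1.12 ± 0.39) passed without Rb1KO replicate 3 (1.5), and Plau (-1.54), Ier3 (-0.96) and Map2k1 (-0.56) without WT replicate 3. None of the 5 Sprouty and Spred genes was called, and the nearest, Spry1, differed by -0.92 ± 0.32 with no overlap.

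Between TKO MEFs and the arrays labelled Rb1KO, 3 members were higher and 3 lower in TKO, where 4.19% and 2.99% of all probe sets were called. Over genes read on 1 probe set each, the shares were 5.92% and 3.63%. Rasa1 (10.60, 11.48 and 10.61 on the arrays labelled Rb1KO) was lower in TKO MEFs by a log2 fold change of -1.40 ± 0.21 (adjusted p = 0.0017 in limma). Spry2 was lower by -1.66 ± 0.30 (adjusted p = 0.006 in limma), and these 2 kept their calls when any array was left out. Junb (7.80, 8.35 and 8.01 on the arrays labelled Rb1KO) at 0.87 ± 0.21, Ier3 (10.47, 10.78 and 10.64) at 1.30 ± 0.34, Vegfa at 1.0 ± 0.24 (8.98, 9.29 and 8.99 in TKO) and Nras at -0.53 ± 0.14 were called as well, and no arrays overlapped for any of them. Each of these 4 calls was lost without some arrays. Vegfa lost it without any array of the groups (0.90 to 1.05), Nras without any but TKO replicate 1 (-0.61 to -0.41), Ier3 without any but TKO replicate 1 (1.09 to 1.37) and Junb without any but Rb1KO replicate 2 and TKO replicate 3 (0.74 to 0.84). Etv5 (-1.07 ± 0.40) passed without Rb1KO replicate 3 (-1.57), and Egr1 and Ier2 without TKO replicate 3 (1.20 and 0.63). Depending on the array left out, 2 to 5 members were called.

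TKO-Ras MEFs compared with WT MEFs combine the deletions and RasG12D, and share their arrays with the comparisons above. Of the 37 members 11 were higher and 5 lower, where 15.5% of all probe sets were called higher and 12.4% lower. These are 7001 and 5575 probe sets, a balance that turned to 5177 and 6658 with cyclic loess scaling. Over genes read on 1 probe set each, the shares were 19.4% and 14.3%. Fosl1 (10.18, 9.39 and 10.37 in TKO-Ras MEFs) differed most among the higher ones, with a log2 fold change of 2.84 ± 0.55 (adjusted p = 0.0027 in limma). Epha2 rose by 2.18 ± 0.36 (adjusted p = 8.6e-04 in limma), Etv4 by 1.87 ± 0.39, Jun by 1.68 ± 0.30, Spred2 by 1.17 ± 0.12, Spred1 by 0.91 ± 0.10 and Nras by 0.61 ± 0.14. Dusp6 (1.47), Spry4 (1.31), Hmga2 (1.26) and Tgfa (0.34) rose too. Spry2 (0.28 ± 0.30), Spry1 (0.42 ± 0.32), Dusp5 (0.73 ± 0.45), Etv5 (0.86 ± 0.40) and Dusp4 (1.68 ± 0.80), all higher on average in TKO-Ras than in TKO MEFs, were not called against WT.

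The 5 that fell against WT were Fos (8.05, 9.79 and 9.99 in TKO-Ras MEFs, a log2 fold change of -2.52 ± 0.64), Egr2 (-1.66 ± 0.37), Fosl2 (-1.39 ± 0.12), Fosb (-1.24 ± 0.34) and Rasa1 (-0.63 ± 0.21). For each of them no TKO-Ras array reached the WT range. Fosl2 had the smallest adjusted p, 1.3e-05 in limma, and Rasa1 the largest, 0.04. The Fosl2 probe set not read here moved the other way (0.44, adjusted p = 0.0038 in limma). Egr2 is a transcription factor of Schwann cells and of immediate-early responses, and its WT values were 6.96, 6.49 and 7.33. Calls were lost without some arrays for Rasa1 (any but WT replicate 3, -0.70 to -0.57), Fosb (TKO-Ras replicate 1 or 2 or WT replicate 1 or 2, -1.16 to -1.11), Dusp6 (any TKO-Ras array or WT replicate 3, 0.97 to 1.5), Spry4 (any but TKO-Ras replicate 2 and WT replicate 2, 1.12 to 1.35), Hmga2 (TKO-Ras replicate 1 or 3 or WT replicate 3, 0.94 to 1.27) and Tgfa (TKO-Ras replicate 1 or WT replicate 2, 0.31 and 0.26). Dusp1 passed without WT replicate 3 (-1.55), Spry1 without TKO-Ras replicate 3 (0.89) and Vegfa without TKO-Ras replicate 2 (-0.67). Egfr was not called on the probe set read (-0.41 ± 0.15, adjusted p = 0.054 in limma) and passed without WT replicate 1 (-0.52), while the next probe sets in brightness fell by 3.25 and 3.06 on the log2 scale and the mean of its 7 probe sets by 1.03, all called.

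The wider pathway was described from a list of 105 other genes, of which 95 were measured. Between TKO-Ras and TKO MEFs 7 of the 95 were higher and 12 lower (2.54% and 3.13% of all probe sets), with a median log2 fold change of -0.02, close to the 0.04 over all genes. Of 14 genes listed as other feedback inhibitors 1 rose and 3 fell. Il17rd, an antagonist of FGF receptor signalling, differed by -1.48 ± 0.38 and Dusp16, a phosphatase of JNK and p38, by -0.76 ± 0.16. Spry3 fell as well, and was above background on 1 TKO array and on no TKO-Ras array. Of 20 other immediate-early genes 1 rose and 2 fell, namely Klf4 (0.92 ± 0.20), Tnfaip3, an inhibitor of NF-kappaB (-1.72 ± 0.27), and the antiproliferative gene Btg2 (-1.39 ± 0.36). Among 12 receptor tyrosine kinases 2 rose and 2 fell, including the EGF receptor relative Erbb3 (1.09 ± 0.22), Fgfr2 (-1.04 ± 0.16) and the fibroblast receptor Pdgfrb (-1.01 ± 0.17). Of 13 adaptors and exchange factors Gab1 (-1.26 ± 0.22) and Shc2 (-0.97 ± 0.17, above background on 1 TKO-Ras array) fell.

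Kinases and GTPase-activating proteins outside the member list also differed between TKO-Ras and TKO MEFs. Braf fell (-0.74 ± 0.17), 1 gene called of the 8 in the Raf, MEK, ERK and scaffold list, and Rit1 fell (-0.68 ± 0.11), 1 of 7 other Ras relatives. Of 6 other Ras GTPase-activating proteins, Rasa2 rose (0.83 ± 0.12), and Rasa4 rose from background to at least 1.49 times the background level. Of 5 other EGF family ligands Btc rose from background, at least 1.75-fold, and Nrg1 fell (-1.19 ± 0.26). None of the 10 kinases and Ets factors below ERK was called.

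Between TKO and WT MEFs 6 of the 95 other pathway genes were higher and 13 lower, where 10.5% and 9.01% of all probe sets were. Rasgrp3, a Ras exchange factor, was at background on every TKO array and at 9.38, 10.25 and 5.83 in WT MEFs, at least 10.2-fold higher in WT on average, with WT replicate 3 far below the others. Rasa4 was at least 3.79-fold lower in TKO than in WT MEFs, and the GTPase-activating protein gene Rasa3 was higher (1.29 ± 0.18). Among 8 Raf, MEK, ERK and scaffold genes 3 fell: the scaffold gene Shoc2 (-0.94 ± 0.10), Braf (-0.66 ± 0.17) and Araf (-0.61 ± 0.13). The receptor genes Pdgfrb (-1.52 ± 0.17), Igf1r (-1.05 ± 0.17) and Fgfr1 (-1.05 ± 0.31) fell, as did Mras (-0.52 ± 0.10) and the ERK-activated kinase gene Mknk1 (-0.88 ± 0.21). The Ets factor Ets2 rose by 2.15 ± 0.41, the immediate-early genes Atf3 by 1.80 ± 0.43 and Klf10 by 1.37 ± 0.23, while Zfp36 fell by 0.80. Rasl11b, which was listed with the other feedback inhibitors without a test of that role, fell (-2.61 ± 0.29). In the same list Spred3 fell (-0.72 ± 0.13) and Dusp9 was at least 1.18-fold higher in TKO MEFs. On the arrays labelled Rb1KO 9 of the 95 were higher and 18 lower than in WT (12.5% and 10.1% of all probe sets). In TKO against Rb1KO 5 were higher and 6 lower (4.19% and 2.99%), and in TKO-Ras against WT 11 were higher and 26 lower (15.5% and 12.4%).

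Members spread more between replicates than other genes did. The median SD between the 3 arrays of a group was 0.41 over members in WT MEFs against 0.20 over 12162 genes above background, 0.47 against 0.14 in Rb1KO, 0.40 against 0.14 in TKO and 0.19 against 0.15 in TKO-Ras MEFs. The excess was thus small in TKO-Ras MEFs. Ereg and Hbegf had the largest pooled SDs among the members, 1.29 and 1.27, followed by Dusp4 (1.15), Egr3 (1.10) and Plaur (1.04), all above those of 99% of genes. The steadiest were Tgfa (0.090), Spred1 (0.10) and Spred2 (0.15).

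The members also deviated together on single arrays. WT replicate 3 was the lowest of the 3 WT arrays for 29 of the 37 members, against 40.5% of genes above background. Rb1KO replicate 2 was the highest of its group for 31 members, against 37.7% of genes, and TKO replicate 3 the lowest of its group for 26, against 37.2%. The median deviations of the members from the group mean on these arrays were -0.35, 0.42 and -0.42, and the medians over genes were within 0.02 of 0. In TKO-Ras MEFs the 3 medians lay between -0.08 and 0.04. Genes of a pathway are not independent of each other, and these counts describe the arrays and were not tested.

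**Figure D4:**
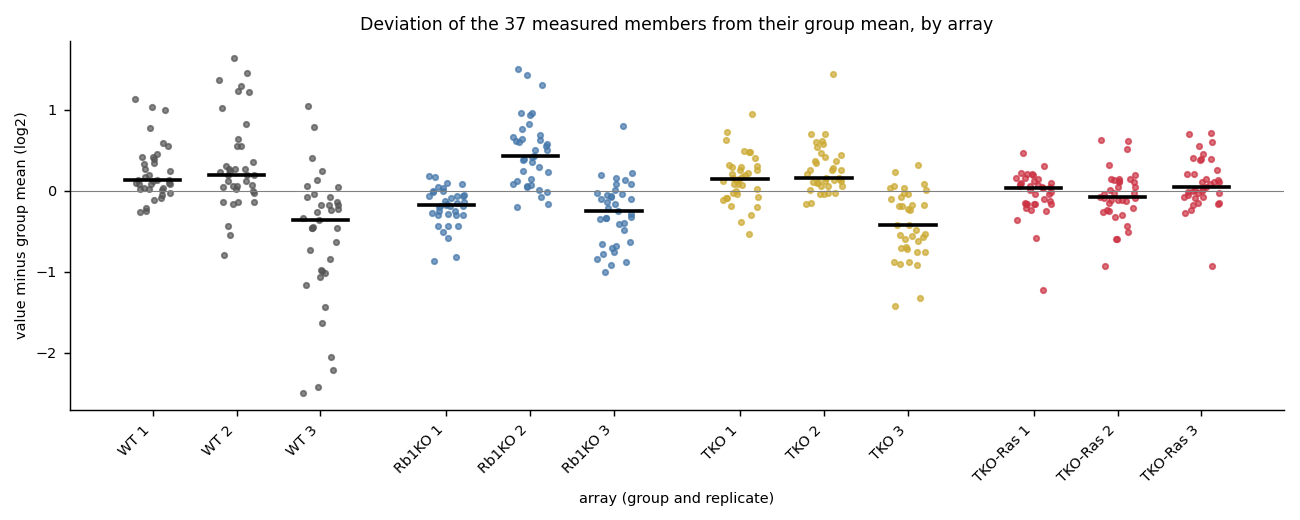
Deviation of each of the 37 measured members from its own group mean (log2, vertical axis) on each of the 12 arrays (horizontal axis, group and replicate), with a point for each member and a line for the median. The members lie mostly below 0 on WT replicate 3 and TKO replicate 3 and mostly above 0 on Rb1KO replicate 2, while the TKO-Ras arrays are centred close to 0.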

How the data were processed

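The authors labelled 100 ng of RNA per array and, per the labels and methods, summarized the scans with RMA in Partek Genomics Suite 6.5. The deposited value of each probe set is on a log2 scale, read from the values (2.18 to 14.92, array medians 5.34 to 5.41), since the scale is not stated. RMA subtracts background and equalizes the distributions of the arrays, so a shift shared by most genes cannot be seen. Array number, 3 a group, limits the precision.

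Here limma 3.58.1 (R 4.3.3) fitted all 12 arrays at once, with 8 residual degrees of freedom, over 45037 probe sets (64 manufacturer control probe sets left out), for 5 comparisons. The platform annotation gave 34945 probe sets a single gene, 932 several genes and 9160 none. Tables and plots used the R package data.table, version 1.17.8, Python 3.11.15, pandas 2.3.3 and matplotlib 3.10.9. The fit was tested on simulated data. The members and the lists of other pathway genes and cell type markers were chosen with earlier results of these data known. All members are named. Of the other pathway genes, up to 3 called genes per list with the largest change in TKO-Ras against TKO and TKO against WT are named, and of each marker list the most abundant gene, besides Dcn, Col1a1, Tnnt2, Cdh1, Ptprc and Pecam1, which were named after their values were seen. Alternatives covered moderation, array weights, a replicate block, the arrays fitted, 2 scalings, a filter on dim probe sets, the probe set read, a fold threshold and leaving out each array. Equal replicate numbers were not taken as pairing the arrays. No pair of arrays held identical values.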

Additional observations from a re-analysis of the deposited data

How the results depend on the processing

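With 13 members called between TKO-Ras and TKO MEFs, the methods' 1-way ANOVA contrasts without moderation called 6, and leaving out 1 array gave 7 to 11. Of the 6 called between TKO and WT MEFs, the ANOVA contrasts gave 3, array weights 11 and leaving out 1 array 2 to 10. Rb1KO against WT had 8, and 5 with a 2-fold minimum, which by construction drops small changes. TKO against Rb1KO had 6, with 2 by the ANOVA contrasts, 3 with the 2-fold minimum and 2 to 5 with 1 array left out. TKO-Ras against WT had 16, and 10 to 14 with 1 array left out. Shares of all probe sets called were not counted in these alternatives, so the counts describe the members alone. Apart from the 2-fold minimum, calls kept under every alternative were Dusp6, Spry4, Spred1, Spred2, Etv5 and Fosl2 in TKO-Ras against TKO, and 2 of 6, 6 of 8, 2 of 6 and 10 of 16 in the other comparisons. With that minimum as well, which Spred1 and Spred2 missed, these were 4, 2, 4, 2 and 8 calls. No called value changed sign under these alternatives. They did not include the other Fosl2 probe set read alone, which was called higher in TKO-Ras than in WT MEFs (0.44).

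With the replicate number as a block, 16, 7, 9, 7 and 18 members were called in the 5 comparisons in the order above. The shares of all probe sets called under the block were not counted. Equal numbers correlated between -0.235 and 0.34 over 18 pairs, 8 of them over 0.1. Other numbers correlated between -0.451 and 0.367 over 36 pairs, 9 of them over 0.1. The numbers were not taken as pairing, and since these ranges overlap, the check cannot decide whether the arrays were paired. Dusp5 (1.69) and Junb (-0.78) passed under the block in TKO-Ras against TKO.

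Some members not called in the comparison concerned changed sign. In TKO-Ras against TKO, Egfr came to -0.30 as the mean of its probe sets and to -1.44 with probe sets that carry a suffix left out. With array weights, Ereg (-0.42) and Dusp4 (-0.11) turned in Rb1KO against WT. Leaving out 1 array moved Map2k1 from -0.16 to 0.02, Egfr from -0.00 to 0.16, Egr1 from -0.70 to 0.09, Egr3 from -0.28 to 0.89 and Plau from -0.13 to 0.39 in TKO-Ras against TKO. It moved Nf1 from -0.00 to 0.19, Ereg from -0.63 to 1.41, Dusp4 from -0.29 to 1.64 and Plaur from -0.07 to 1.69 in Rb1KO against WT, and Hbegf from -0.17 to 1.55 and Plaur from -0.01 to 1.75 in TKO-Ras against WT. The low ends of Ereg, Dusp4, Plaur and Hbegf were reached without WT replicate 3. The cause was not tested. With the background at the median of the olfactory receptor probe sets (3.84) no member was at background in any group, and at their 99th percentile (5.82) Spry4 was at background in WT and TKO, Fosb in Rb1KO, TKO and TKO-Ras, and Egr2 in TKO-Ras MEFs. Signals near background understate a fold change.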
